A study of Mus musculus with 21 samples.

Results

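Cell cycle and mitosis genes were described in the lungs of A/J mice given a tobacco carcinogen, a bacterial inflammatory agent, or both. The 38 members were taken by gene symbol from the count table of the series, which holds 38924 symbols, and all 38 were present. All 38 also passed the filter on low counts, which left 15770 genes for testing. By role they divide into 2 proliferation markers, 7 cyclins and cyclin partners, 2 transcription factors, 9 genes of replication licensing and the replication fork, 3 genes of nucleotide supply, 8 mitotic kinases, checkpoint and anaphase genes, and 7 genes of the kinetochore, motors and spindle. The last 15 are called mitosis genes here, and the 9 are called replication genes.

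Lung RNA was sequenced from female A/J mice 22 weeks after treatment, in 7 groups of 3 libraries. NNK, a nitrosamine of tobacco, was injected into the peritoneum as 1 dose of 100 mg/kg in 0.1 ml of saline, and the other mice received the vehicle. LPS, the endotoxin of Gram-negative bacteria, was instilled into the nose at 5 µg per mouse in 50 µL of buffer each week from 1 week after NNK. The groups were Control (vehicle), NNK, LPS, NNK_LPS (both agents), NNK_LPS_Sil, NNK_LPS_I3C and NNK_LPS_Sil_I3C. Sil and I3C (silibinin and indole-3-carbinol, tested as chemopreventive agents) were added to the diet at 20 µmol/g each, alone or together. Per the labels' protocols, RNA of every group with NNK came from tumours cut out of the lung, with tissue of 3 mice pooled in each group, and RNA of Control and LPS came from normal lung. Tumour tissue and NNK treatment therefore cannot be told apart in any comparison that crosses these tissues. Nothing in the labels ties a library to a mouse, so the p-values measure only the spread between libraries, which may be technical.

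A cell that divides first licenses its DNA for copying by loading the ring-shaped MCM helicase, then fires those origins in S phase, and in mitosis builds a spindle that pulls the copies apart. E2F factors switch on the licensing and S phase genes. Many mitosis genes are switched on later, through CCAAT boxes bound by NF-Y and a promoter element named CHR that is bound by complexes with B-MYB and FOXM1. Few cells of a resting adult lung divide, and the level of these genes in whole tissue is commonly read as a sum over the dividing cells. In such bulk RNA, fewer dividing cells and less RNA per dividing cell cannot be told apart.

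The promoters of 6 members are shown because their letters differ by role, and the counts below are given by role. Each is the 180 bases before the RefSeq transcription start on GRCm38.p6, written 5′ to 3′ along the gene's own strand. Capitals mark every match, on either strand, to the CHR letters TTTGAA, to CCAAT, or to the letters of an E2F site, which were TTCCCGC, with TTGGCGC and then TTCGCGC as further forms. Where 2 matches overlap, as the E2F matches in Mcm5 and Mcm6 do, they form 1 run of capitals.
Mcm5: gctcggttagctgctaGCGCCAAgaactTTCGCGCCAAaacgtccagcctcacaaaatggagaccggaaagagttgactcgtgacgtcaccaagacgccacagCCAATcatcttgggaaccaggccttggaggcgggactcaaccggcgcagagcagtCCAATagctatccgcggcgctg
Mcm6: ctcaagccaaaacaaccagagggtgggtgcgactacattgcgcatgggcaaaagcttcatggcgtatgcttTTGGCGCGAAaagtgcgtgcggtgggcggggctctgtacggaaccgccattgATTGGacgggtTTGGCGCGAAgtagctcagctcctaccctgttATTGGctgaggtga
Cdk1: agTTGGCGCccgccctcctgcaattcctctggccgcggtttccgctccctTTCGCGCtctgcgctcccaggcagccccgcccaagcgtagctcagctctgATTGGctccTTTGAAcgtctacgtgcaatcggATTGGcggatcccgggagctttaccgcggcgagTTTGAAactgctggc
Top2a: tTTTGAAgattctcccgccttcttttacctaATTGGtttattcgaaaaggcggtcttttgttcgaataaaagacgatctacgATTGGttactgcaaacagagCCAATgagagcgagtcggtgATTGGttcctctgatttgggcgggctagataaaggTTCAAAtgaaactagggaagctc
Kif11: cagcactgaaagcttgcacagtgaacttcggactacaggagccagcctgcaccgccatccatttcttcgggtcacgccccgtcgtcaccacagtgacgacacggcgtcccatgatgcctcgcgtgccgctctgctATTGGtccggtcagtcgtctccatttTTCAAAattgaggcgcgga
Ube2c: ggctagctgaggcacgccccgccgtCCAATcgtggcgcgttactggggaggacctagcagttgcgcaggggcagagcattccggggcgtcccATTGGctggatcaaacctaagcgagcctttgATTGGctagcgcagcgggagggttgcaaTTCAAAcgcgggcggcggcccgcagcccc
Mcm5 (chr8:75109329-75109508, plus strand) and Mcm6 (chr1:128359706-128359885, minus strand) encode helicase subunits. They had 3 and 4 E2F matches, 2 CCAAT matches each, and no CHR match in these bases. Cdk1 (chr10:69352913-69353092, minus strand), the kinase that starts mitosis, had 2 matches of each kind. Top2a (chr11:99024190-99024369, minus strand), the topoisomerase that untangles chromosomes, had 2 CHR and 4 CCAAT matches. Kif11 (chr19:37376202-37376381, plus strand), a motor that separates the spindle poles, had 1 CHR and 1 CCAAT match. Ube2c (chr2:164769749-164769928, plus strand), which tags cyclin B for destruction, had 1 CHR and 3 CCAAT matches.

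RefSeq promoter windows of 300 bases (250 before the start and 50 after it) were listed for 30 of the 38 members, in 32 windows. The 9 windows of replication genes were of 8 genes, and the 13 windows of mitosis genes were of 12 genes. The E2F letters were in 6 of the 9 windows of replication genes (66.7%) and in 0 of the 13 windows of mitosis genes. The CHR letters were in 9 of those 13 (69.2%) and in 22.2% of the replication windows. Of the 32851 windows of all listed genes, 8.07% held the E2F letters, 17.9% the CHR letters and 37.4% CCAAT, which 78.1% of the member windows held. A match is a description of the letters, not of binding, and the start sites are those of RefSeq, so 23 of the 32 windows had their 30 bases after the start inside a GENCODE transcript of the same gene.

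The libraries held 13305504 to 25276293 counts each. Levels are given as CPM, read counts scaled to each library's TMM-adjusted total, and differences as log2 fold changes ± SE from edgeR's quasi-likelihood test, called at a Benjamini-Hochberg adjusted p under 0.05 over all genes tested. The libraries fell into 3 sets by their mt-Atp8 counts per mt-Atp6 count, and the labels name no such sets. Set A (ratio 0.0206 to 0.0236) held Control, NNK and LPS 1 and 2. Set B (0.0782 to 0.0876) held LPS 3, NNK_LPS, NNK_LPS_Sil and NNK_LPS_I3C 1. Set C (0.117 to 0.135) held the rest. Control and NNK_LPS share no set, nor do NNK and NNK_LPS, nor NNK_LPS and NNK_LPS_Sil_I3C. Within groups some libraries stood apart for the members. Control 3 was the highest Control library in 34 of 38 members, against 40.8% of all genes, and Control 1 the lowest in 32, against 30.8%. LPS 3 was the lowest LPS library in 27, against 34% of all genes. NNK_LPS 3 was the lowest in its group in 30, against 35.3%, and NNK_LPS_Sil 3 the highest in its group in 29, against 39.1%. Summed B cell markers were 145 CPM in Control 3 and 40.7 and 23.8 CPM in Control 1 and 2. Alveolar macrophage markers summed to 3823 CPM in NNK_LPS_Sil 3 and to 766 and 881 CPM in the other 2 libraries of its group. The part of these differences in the members' levels was not tested.

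Across the 7 groups, the group mean was highest in Control for 18 members and in LPS for 16. It was lowest in NNK_LPS_I3C for 28 of the 38. The like shares over all genes were not counted, and NNK_LPS_I3C 2 and 3 are of library set C. Per kilobase of exon, the mean level over all libraries ran from 0.372 CPM for Ccne2 to 57.2 for Ccnd1, the cyclin D gene that answers growth signals in G1. Pcna, which encodes the clamp that holds the polymerase on DNA, stood at 36.7 CPM per kilobase, and the 6 MCM genes at 2.49 to 7.96. Most mitosis genes lay lower, at 0.485 for Cenpf to 1.99 for Bub1b, with Cdc20 at 3.96. The table lists Pcna-ps1, Pcna-ps2 and Ccnb2-ps as symbols of their own, and how reads shared with such copies were counted is not given in the sources used here.

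**Figure D1:**
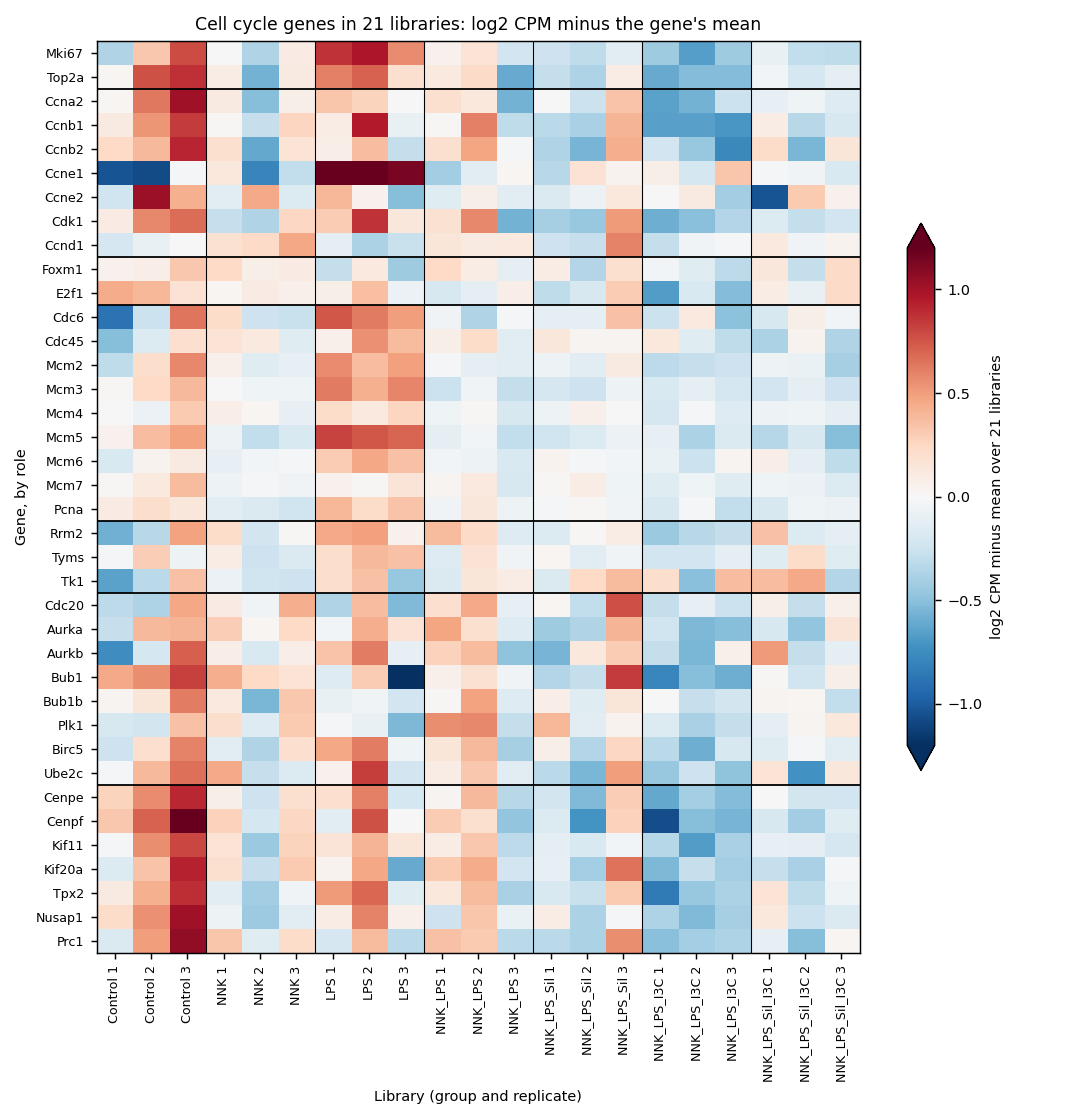
Log2 CPM of each of the 38 genes (rows, by role) in the 21 libraries (columns, by group), minus the gene's mean over the libraries; colours reach their limit at the arrow ends of the bar. Control 3 and the LPS libraries are red over many genes, Ccne1 is dark red in LPS alone, and the 3 NNK_LPS_I3C libraries are blue over most mitosis genes.

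Inflammation without carcinogen was addressed by LPS against Control, the only comparison of treated and untreated normal lung. By edgeR, cyclin E1 and 4 of 9 replication genes were called higher in the LPS lungs, and of the 15 mitosis genes none was called higher and 1 lower. The difference between these gene groups was not tested. Of the 38 members, 5 rose (Ccne1, Cdc45, Mcm3, Mcm5, Mcm6) and 1 fell (Bub1), where 50% of all genes were called, 25.3% higher and 24.7% lower. DESeq2 called 8 members. The median log2 fold change was 0.32 over the replication genes, -0.25 over the mitosis genes and -0.02 over all genes tested. The mitosis median was -0.43 without Control 1, -0.44 without LPS 2, -0.16 without LPS 3 and -0.05 without Control 3.

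Ccne1 (chr7:38097984-38107534, minus strand), the cyclin that pushes cells from G1 into S phase, stood at 0.986, 0.958 and 2.00 CPM in the 3 Control libraries and at 4.87, 5.26 and 4.44 CPM in the LPS libraries. The groups did not overlap, and each LPS library was above every other library of the study. Ccne1 rose by 1.87 ± 0.28 (adjusted p = 2.85e-05, edgeR), the largest log2 fold change of any member in this comparison. Ccne2, the gene of the related cyclin E2, stood at 1.06 to 2.55 CPM in Control and at 0.875 to 1.65 CPM in LPS, which overlapped (-0.48 ± 0.35).

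Of the 6 MCM helicase genes 3 were called. Mcm5 stood at 20.8, 25.9 and 28.1 CPM in Control and at 35.2, 33.7 and 32.5 CPM in LPS (0.44 ± 0.11, adjusted p = 0.00425, edgeR). Mcm6 stood at 28.4, 33.2 and 34.7 CPM in Control and at 39.9, 44.4 and 41.1 CPM in LPS (0.38 ± 0.10, adjusted p = 0.00358, edgeR). Mcm3 (chr1:20802968-20820312, minus strand) stood at 23.7, 27.5 and 30.7 CPM in Control and at 36.0, 31.5 and 35.1 CPM in LPS (0.32 ± 0.09, adjusted p = 0.00781, edgeR). For these 3 genes the groups did not overlap, with Control 3 the nearest Control library each time. Mcm2 (0.27 ± 0.15), Mcm4 (0.11 ± 0.09) and Mcm7 (-0.11 ± 0.09) were not called, and Mcm2, Mcm4 and Mcm7 overlapped between the groups. Cdc45, a partner of the MCM ring in the active helicase, was called at 0.47 ± 0.19 (adjusted p = 0.0493, edgeR), although its LPS range of 4.87 to 6.83 CPM overlapped that of Control, 3.26 to 5.36 CPM, and the call was lost under 9 of 13 alternatives. These were no filter, the 2 groups alone, the replicate block, the set term, set A alone, and leaving out Control 1, Control 2, LPS 2 or LPS 3. Pcna stood at 93.3, 101 and 95.7 CPM in Control and at 115, 102 and 111 CPM in LPS and was just short of the threshold (0.17 ± 0.07, adjusted p = 0.0573, edgeR), while DESeq2 called it higher (0.19, adjusted p = 0.0423).

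The proliferation markers and Cdk1 were less clear. Mki67 (chr7:135689784-135716361, minus strand), the Ki-67 antigen of dividing cells, stood at 34.9, 56.0 and 77.3 CPM in Control and at 81.6, 87.8 and 66.6 CPM in LPS. The 2 groups overlapped through Control 3 and LPS 3, and the difference was 0.49 ± 0.20 (adjusted p = 0.0536, edgeR). DESeq2 called Mki67 higher (0.50, adjusted p = 0.039). Top2a stood at 26.9, 44.8 and 48.5 CPM in Control and at 40.2, 43.0 and 30.2 CPM in LPS (-0.09 ± 0.23). Cdk1 stood at 6.75, 9.45 and 10.1 CPM in Control and at 7.81, 11.5 and 6.94 CPM in LPS, with equal means of 8.76 CPM. Neither gene separated the groups. Ccnd1 stood at 230.3, 249 and 264 CPM in Control and at 244, 204 and 220.3 CPM in LPS (-0.15 ± 0.17). E2f1, a driver of S phase genes, stood at 25.3, 24.5 and 21.0 CPM in Control and at 19.6, 23.9 and 17.8 CPM in LPS (-0.21 ± 0.16). Both overlapped. Tyms, which makes the thymidine nucleotide, stood at 9.10, 11.4 and 8.91 CPM in Control and at 10.8, 12.2 and 11.9 CPM in LPS (0.24 ± 0.13, not called).

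Bub1 (chr2:127801122-127831865, minus strand), a kinase of the spindle checkpoint, stood at 5.69, 6.13 and 7.36 CPM in Control and at 3.73, 5.12 and 1.82 CPM in LPS. The groups did not overlap, and LPS 3 was the lowest of all 21 libraries. The log2 fold change was -0.85 ± 0.31 (adjusted p = 0.0301, edgeR), and the call was lost under 7 of 13 alternatives, with the 2 groups alone, the set term or set A alone and without LPS 1, LPS 3, Control 2 or Control 3. Bub1b, its partner in the checkpoint, stood at 8.57, 9.26 and 12.8 CPM in Control and at 7.88, 8.12 and 7.14 CPM in LPS, without overlap but not called (-0.40 ± 0.21). Prc1, which bundles the central spindle, stood at 8.80, 14.1 and 20.8 CPM in Control and at 8.67, 12.9 and 7.95 CPM in LPS (-0.57 ± 0.30). Cenpf, a kinetochore gene, stood at 8.65, 11.2 and 19.6 CPM in Control and at 6.31, 11.7 and 6.94 CPM in LPS (-0.67 ± 0.31). Nusap1, a spindle microtubule gene, stood at 7.21, 9.07 and 12.5 CPM in Control and at 6.59, 9.35 and 6.46 CPM in LPS (-0.36 ± 0.21). In each of these 3 the groups overlapped and Control 3 was the highest Control library.

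**Figure D2:**
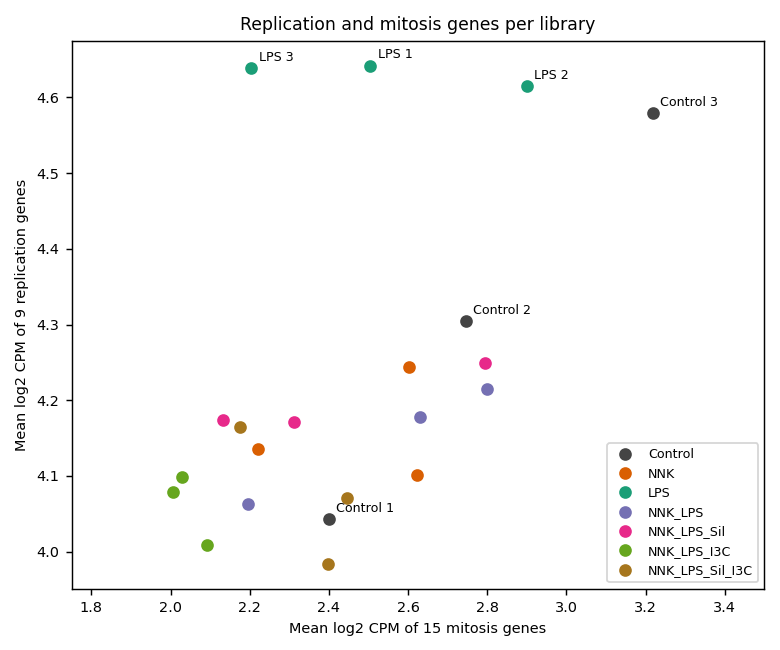
Each point is a library, with its mean log2 CPM over the 15 mitosis genes on the horizontal axis and over the 9 replication genes on the vertical axis. The 3 LPS libraries lie between 4.61 and 4.64 on the replication axis, above the other libraries, while their mitosis means spread from 2.20 to 2.90, within the Control range of 2.40 to 3.22 except for LPS 3.

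The mean log2 CPM of the replication genes minus that of the mitosis genes was 1.36 to 1.64 in Control and 1.71 to 2.43 in LPS. Leaving out Control 3 moved the members called from 6 to 10, all higher, and added Cdc6, Mcm2, Mcm4, Mki67 and the ribonucleotide reductase gene Rrm2 (0.81 ± 0.21) while Bub1 was lost. Within library set A, where LPS has 2 libraries, Ccne1 (1.95 ± 0.36), Mcm3 (0.32 ± 0.12), Mcm5 (0.48 ± 0.13) and Mcm6 (0.41 ± 0.10) were called.

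Other genes of the same processes were read from lists written by function. Of 25 other replication genes 9 rose and 1 fell in LPS lung. Among them, Gins1, a subunit of the active helicase, rose from 1.44 ± 0.164 to 2.96 ± 0.602 CPM (SD, n = 3), by 1.04 ± 0.20. Rfc5, of the clamp loader, rose by 0.78 ± 0.14, and Fen1, the flap nuclease, by 0.62 ± 0.13. Pola1, the primase-bound polymerase, fell by 0.31 ± 0.11. Of 30 other mitosis genes 1 rose (Ccnf, 0.77 ± 0.28) and 3 fell, the cytokinesis gene Anln (-0.95 ± 0.24) and the motors Kif23 (-0.77 ± 0.21) and Kif4 (-0.76 ± 0.30). Of 13 genes of G1 control, Myc rose from 7.32 ± 0.166 to 20.0 ± 1.17 CPM (SD, n = 3), by 1.45 ± 0.25, and E2f2 (-0.72 ± 0.16) and Ccnd2 (-0.37 ± 0.12) fell. Of 19 brakes 4 rose and 4 fell. Cdkn1c, the CDK inhibitor p57, fell from 36.7 ± 6.43 to 13.0 ± 0.848 CPM (SD, n = 3), by 1.49 ± 0.18, and the CDK4 and CDK6 inhibitor Cdkn2c by 0.87 ± 0.20. Rbl1, the pocket protein p107, rose by 0.59 ± 0.12.

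Cell type markers moved in the same comparison. All 7 monocyte and macrophage markers tested rose, with sums of 397 to 472 CPM in Control and 1494 to 1502 CPM in LPS. Of 8 T cell markers 7 rose, from sums of 43.4 to 66.9 CPM up to 149 to 194 CPM, and of 6 neutrophil markers 5 rose, from 32.2 to 96.1 CPM up to 811 to 1033 CPM. All 6 endothelial markers fell, from sums of 3334 to 3555 CPM down to 1437 to 1649.7 CPM. All 5 heart muscle markers fell. No marker of these lists was at 0 in every library, and the part of these cells in the members' levels was not tested.

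**Figure D3:**
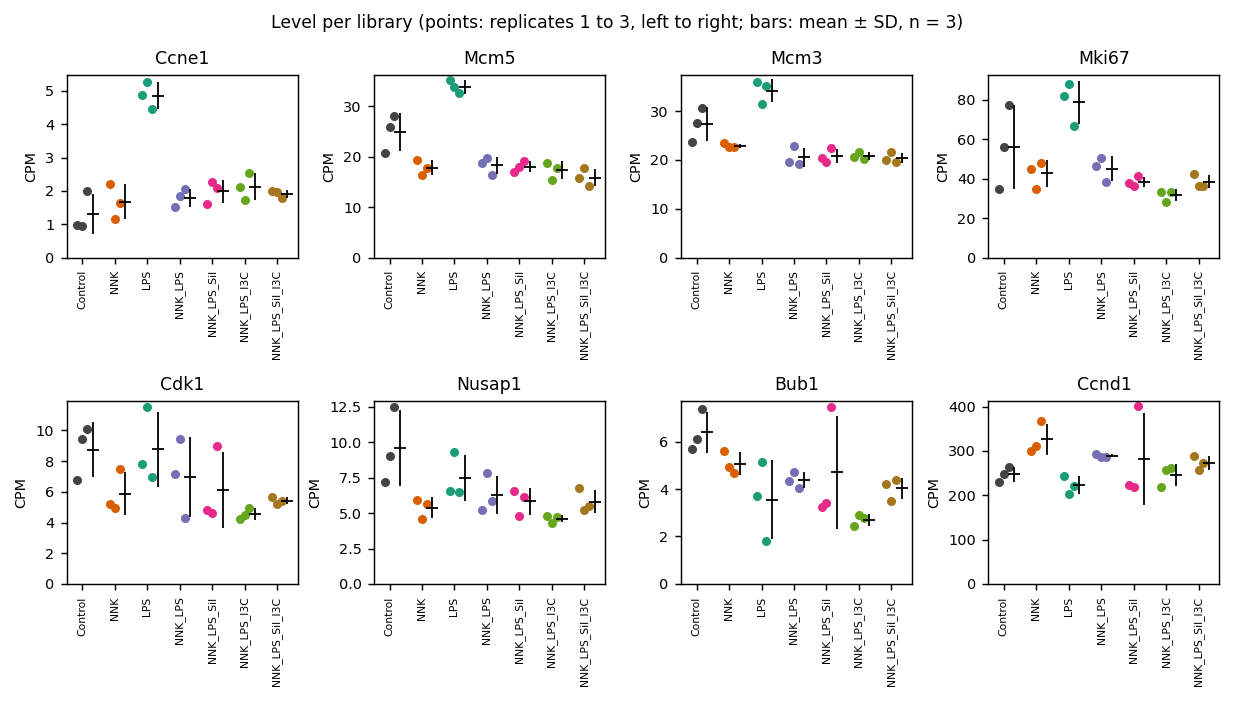
CPM per library for 8 genes in the 7 groups, with replicates 1 to 3 from left to right and the mean ± SD (n = 3) beside them. Ccne1, Mcm5 and Mcm3 stand apart in LPS, Bub1 and Ccnd1 have 1 high library in NNK_LPS_Sil, and Cdk1 overlaps among most groups.

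Carcinogen-induced tumours were compared with normal lung in NNK against Control. By edgeR no member was called higher in the tumours and 3 of 38 fell, where 13.1% of all genes were called, 6.63% lower. Those 3 were Mcm5, Pcna and Nusap1. Point estimates lay below 0 for 32 members, with a median of -0.30 and a median over all genes of -0.02.

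Pcna stood at 79.5, 77.4 and 74.1 CPM in NNK, below each Control library, and fell by 0.33 ± 0.07 (adjusted p = 0.011, edgeR). Mcm5 stood at 19.3, 16.4 and 17.7 CPM, again below each Control library, and fell by 0.48 ± 0.12 (adjusted p = 0.015, edgeR). Nusap1 (chr2:119618298-119651244, plus strand) stood at 5.95, 4.58 and 5.65 CPM, against 7.21 CPM in the lowest Control library, and fell by 0.83 ± 0.21 (adjusted p = 0.0196, edgeR). These 3 calls rested on few libraries. None was made without Control 2 or without NNK 3, 1 was made without Control 3 or without NNK 2, 2 without NNK 1, and 6 without Control 1, which added Mki67, Top2a and Ccna2. Without Control 3 the median over the members was -0.09.

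Mki67 stood at 44.9, 34.9 and 48.0 CPM in NNK (-0.40 ± 0.20) and Top2a at 28.2, 17.8 and 28.5 CPM (-0.69 ± 0.23). Cdk1 stood at 5.22, 4.92 and 7.49 CPM (-0.58 ± 0.29). All 3 overlapped Control and none was called by edgeR. DESeq2 called 5 members, all lower, and Top2a was among them (-0.67, adjusted p = 0.0393). Ccnd1 went the other way, at 301, 311 and 366 CPM, above each Control library. Its difference of 0.40 ± 0.17 was not called over the 7 groups (adjusted p = 0.123, edgeR) and was called when the 2 groups were fitted alone (0.42 ± 0.09, adjusted p = 0.0231, edgeR). Ccne1 stood at 2.21, 1.16 and 1.64 CPM and Mcm3 at 23.4, 22.6 and 22.6 CPM, neither of them called (0.34 ± 0.29 and -0.26 ± 0.09). Mcm6 at 31.1 ± 0.908 CPM (SD, n = 3) lay inside the Control range. E2f1 stood at 18.9, 19.9 and 19.4 CPM and Bub1 at 5.62, 4.92 and 4.67 CPM, both below each Control library and not called (-0.28 ± 0.16 and -0.34 ± 0.30). Tyms (9.83, 7.79 and 8.22 CPM), Bub1b (9.09, 5.74 and 10.5 CPM), Prc1 (12.5, 9.02 and 11.6 CPM) and Cenpf (8.36, 5.95 and 8.22 CPM) were not called.

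Of the other pathway genes, 2 of 25 replication genes fell, Pola1 (-0.51 ± 0.11) and Rrm1 (-0.32 ± 0.09). None of the 30 other mitosis genes was called by edgeR. Ccnd2, another D-type cyclin, fell by 0.43 ± 0.12 and Cdkn1c by 0.62 ± 0.18. Heart muscle markers summed to 104 to 225 CPM in NNK and 462 to 492 CPM in Control, with 5 of 5 lower. Of 8 alveolar type 2 markers 6 were higher, and of 6 neutrophil markers 5. Summed neutrophil markers were 444 and 542 CPM in NNK 1 and 2 but 75.9 CPM in NNK 3, within the Control range of 32.2 to 96.1 CPM. The part of these cells in the result was not tested.

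Tumours of the NNK_LPS group were set against 3 comparators. Against Control, 4 members fell (Mcm3, Mcm5, Cenpf, Nusap1) and none rose, where 24.6% of all genes were called, 12.6% lower. Against LPS lung, 9 fell and none rose, where 38.2% were called, 20.9% lower. Against NNK tumours without LPS, edgeR and DESeq2 each called 0 members, where 0.0951% of all genes were called by edgeR. At an unadjusted p under 0.05 there was 1 member, Pcna (0.20 ± 0.07, higher), and 16% of all genes. The comparisons share their NNK_LPS libraries, and LPS against Control shares the LPS and Control libraries with them.

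The 9 genes that fell against LPS lung were Mki67, Ccne1 and 7 of the 9 replication genes (Cdc6, Mcm2, Mcm3, Mcm4, Mcm5, Mcm6 and Pcna), and none of the 15 mitosis genes was called. The median log2 fold change was -0.47 over the replication genes and -0.18 over the mitosis genes. In NNK_LPS, Mcm3 stood at 19.6, 22.8 and 19.2 CPM, Mcm5 at 18.7, 19.7 and 16.4 CPM and Mcm6 at 31.5, 31.0 and 28.4 CPM. All were below each LPS library. Against LPS, Mcm3 fell by 0.74 ± 0.09 (adjusted p = 1.23e-05, edgeR), Mcm5 by 0.89 ± 0.12 (adjusted p = 1.59e-05, edgeR) and Mcm6 by 0.47 ± 0.10 (adjusted p = 0.00119, edgeR). Ccne1 stood at 1.51, 1.84 and 2.05 CPM, below each LPS library, and fell by 1.43 ± 0.26 (adjusted p = 0.000425, edgeR). Pcna stood at 84.8, 96.0 and 83.9 CPM and fell by 0.31 ± 0.07. Mki67 stood at 46.6, 50.3 and 38.2 CPM and fell by 0.81 ± 0.20, with no overlap. Of the other calls, that of Cdc6 was lost on leaving out any 1 of the 6 libraries, and that of Mcm4 without LPS 1, LPS 3, NNK_LPS 1 or NNK_LPS 3.

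Only LPS 3 shares a library set with NNK_LPS. Within set B, which leaves 1 LPS library, assumed to vary like the rest, Mcm3 (-0.76 ± 0.15) and Mcm5 (-0.82 ± 0.15) were called. Ccne1 (-1.28 ± 0.33), Mcm6 (-0.42 ± 0.11), Pcna (-0.31 ± 0.11) and Mki67 (-0.55 ± 0.16) were not. The median over the mitosis genes was 0.28 within set B and 0.26 with a term for the library set, above 0, and with that term Bub1 was called higher (1.26 ± 0.42). The direction of the mitosis genes against LPS lung thus changed with these settings, under which all 9 replication genes were below 0. It also changed without LPS 2, where the mitosis median was 0.15, and without NNK_LPS 3, where it was 0.04 and Plk1, the kinase of mitotic entry and spindle assembly, was called higher (0.79 ± 0.22).

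Against Control, Mcm3 fell by 0.41 ± 0.09 (adjusted p = 0.00506, edgeR) and Mcm5 by 0.45 ± 0.12 (adjusted p = 0.0101, edgeR). Cenpf at 8.50, 7.87 and 4.95 CPM was below each Control library and fell by 0.89 ± 0.31. Nusap1 at 5.22, 7.81 and 5.86 CPM overlapped Control and fell by 0.61 ± 0.21. No member was called when the 2 groups were fitted alone or with a term for the library set. Without Control 1 there were 8 calls, without NNK_LPS 1 there were 2, and without Control 2 or NNK_LPS 3 there was 1. Without Control 3 there were 3 calls, 2 of them higher, and the mitosis median was -0.04. With a term for the set the mitosis median turned from -0.27 to 0.31. Set and group cannot be told apart by the libraries of these 2 groups, and the term's offset rests on LPS 3 against LPS 1 and 2.

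Top2a stood at 28.6, 31.0 and 17.4 CPM and Cdk1 at 7.17, 9.45 and 4.27 CPM in NNK_LPS, with NNK_LPS 3 lowest in both. Ccnd1 stood at 294, 287 and 287 CPM, above each LPS and Control library and below each NNK library. None of these differences was called by edgeR, while DESeq2 called Top2a lower against Control (-0.62, adjusted p = 0.0433). E2f1 (16.3, 17.3 and 19.7 CPM), Tyms (8.31, 10.4 and 8.99 CPM), Bub1 (4.34, 4.72 and 4.04 CPM), Bub1b (8.43, 11.7 and 7.51 CPM) and Prc1 (12.7, 12.4 and 7.97 CPM) were not called by edgeR against any of the 3 groups.

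Of 25 other replication genes 14 fell against LPS lung and none rose, among them Fen1 (-0.57 ± 0.13), the chromatin helicase Hells (-0.66 ± 0.16) and Uhrf1 (-0.98 ± 0.25), which recruits the maintenance methylase. Of 30 other mitosis genes 2 rose, the condensin subunit Smc4 (0.31 ± 0.09) and the cytokinesis motor Kif23 (0.63 ± 0.21). In the same list 3 fell, the kinase Nek2 (-1.17 ± 0.32), the checkpoint gene Mad2l1 (-0.47 ± 0.13) and the securin gene Pttg1 (-0.61 ± 0.23). Of the G1 genes the phosphatase Cdc25b (0.97 ± 0.20) and Cdk2 (0.30 ± 0.08) rose and Ccnd2 (-0.42 ± 0.12) fell. Of the brakes Cdkn2a rose from 1.90 ± 0.603 to 5.81 ± 0.655 CPM (SD, n = 3), by 1.61 ± 0.37, with Cdkn1b (0.57 ± 0.11) and Wee1 (0.90 ± 0.23), while Rbl1 fell by 0.71 ± 0.12. Against Control, 3 other replication genes fell (Pola1, Rrm1, Orc1) and 1 mitosis gene (Pttg1). Monocyte and macrophage markers fell in 7 of 7 cases against LPS lung, with sums of 571 to 668 CPM in NNK_LPS, and alveolar type 2 markers rose in 6 of 8. Their part in the result was not tested.

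Whether LPS acted alike in tumours and in normal lung was tested as the difference of 2 differences, NNK_LPS minus NNK and LPS minus Control. For 3 members, Ccne1, Mcm3 and Mcm6, the LPS effect was lower in tumours, where 25.1% of all genes were called, 14.4% lower. Ccne1 differed by 0.11 ± 0.28 with LPS in tumours and by 1.87 ± 0.28 in lung, a difference of -1.77 ± 0.39 (adjusted p = 0.00336, edgeR). Mcm3 differed by -0.16 ± 0.09 in tumours and 0.32 ± 0.09 in lung, a difference of -0.48 ± 0.13 (adjusted p = 0.013, edgeR). Mcm6 differed by -0.04 ± 0.10 and 0.38 ± 0.10, a difference of -0.42 ± 0.14 (adjusted p = 0.0341, edgeR). Of the mitosis genes none was called, with a median difference of 0.40 and 13 of 15 point estimates above 0. That median was 0.18 without Control 3, 0.20 without NNK_LPS 2, 0.22 without LPS 3 and 0.74 with a term for the set. Without Control 3 the count was 7, adding Cdc6, Mcm2, Mcm5 and Mki67. Mcm6 was not called without any 1 of Control 1, NNK 2, NNK 3, LPS 2, LPS 3 or NNK_LPS 3. The NNK and NNK_LPS libraries are of different sets, and the set term's offset between those sets rests on LPS 3 against LPS 1 and 2. With a term for the set, Ccne1 (-1.64 ± 0.48) and Mcm3 (-0.52 ± 0.17) were called, Mcm6 was not, and Bub1 was called with the opposite sign (1.60 ± 0.49).

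**Figure D4:**
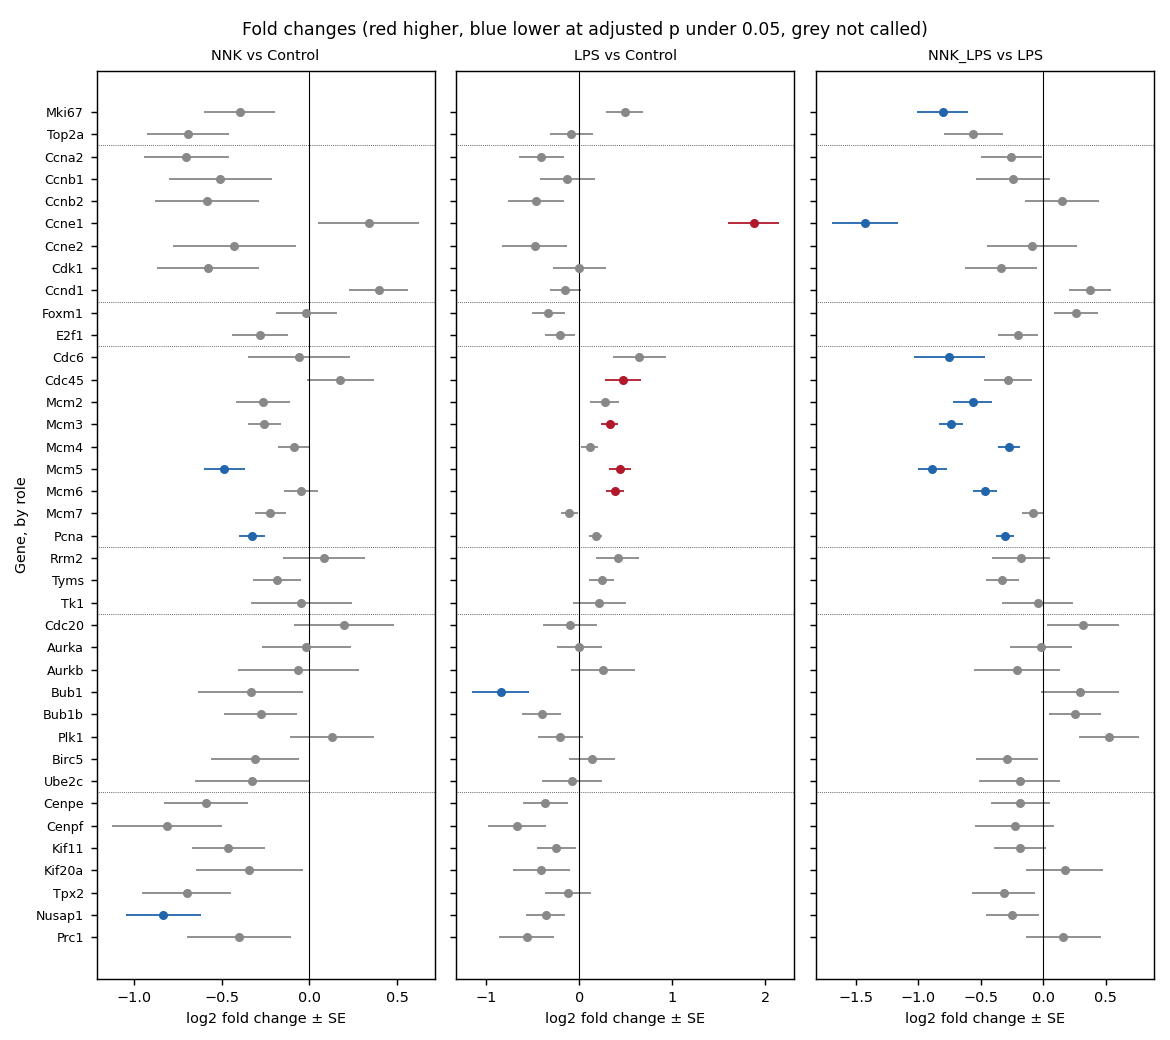
Log2 fold change ± SE of the 38 genes, by role, in NNK against Control, LPS against Control and NNK_LPS against LPS; the horizontal scales differ. Blue (lower) and red (higher) points were called, and the calls among replication genes point up in LPS and down in NNK_LPS against LPS.

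The dietary agents were each set against NNK_LPS tumours without them, and the 3 comparisons share those NNK_LPS libraries. No member was called with any agent by edgeR or by DESeq2, where edgeR called 2.02% of all genes with I3C, 1.36% with both agents and 0% with Sil. With I3C, 15 members had an unadjusted p under 0.05, all lower, against 8.66% of all genes in that direction. Without overlap with NNK_LPS there were 16, again all lower, against 9.68% of all genes. With Sil and with both agents 0 members had an unadjusted p under 0.05, against 3.67% and 16.5% of all genes.

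With I3C all 15 mitosis genes had estimates below 0, with a median of -0.57, a range of -0.73 to -0.30 and 10 without overlap. The 9 replication genes had a median of -0.08, and the median over all genes was 0.01. Ccnb1, the cyclin that activates CDK1 for mitosis, had the lowest estimate (-0.82 ± 0.30, adjusted p = 0.133, edgeR), with 2.73, 2.74 and 2.65 CPM in NNK_LPS_I3C and 4.34, 6.56 and 3.47 CPM in NNK_LPS.

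Mki67 stood at 33.4, 28.3 and 33.3 CPM with I3C, below each NNK_LPS library (-0.51 ± 0.20, adjusted p = 0.167, edgeR). Top2a at 17.4, 18.4 and 18.5 CPM (-0.50 ± 0.24) and Cdk1 at 4.22, 4.48 and 4.95 CPM (-0.61 ± 0.29) overlapped NNK_LPS through NNK_LPS 3. Bub1 stood at 2.42, 2.91 and 2.77 CPM (-0.69 ± 0.31), Cenpf at 3.29, 4.82 and 4.67 CPM (-0.73 ± 0.32), Nusap1 at 4.78, 4.30 and 4.71 CPM (-0.45 ± 0.21) and Prc1 at 7.02, 7.52 and 7.71 CPM (-0.57 ± 0.30). These 4 were below each NNK_LPS library, and none was called. Mcm3 at 20.6, 21.6 and 20.2 CPM (0.02 ± 0.09), Mcm5 at 18.8, 15.4 and 17.8 CPM (-0.08 ± 0.12) and Mcm6 at 30.4, 26.9 and 32.9 CPM (-0.01 ± 0.10) overlapped NNK_LPS, with 95% intervals of -0.16 to 0.20, -0.30 to 0.15 and -0.20 to 0.18. Pcna stood at 76.4, 85.7 and 71.3 CPM (-0.18 ± 0.07) and E2f1 at 11.7, 16.3 and 13.0 CPM (-0.37 ± 0.16), both overlapping. Ccnd1 at 218, 258 and 262 CPM was below each NNK_LPS library (-0.23 ± 0.17). Ccne1 (2.11, 1.74 and 2.53 CPM), Tyms (7.89, 7.91 and 8.61 CPM) and Bub1b (8.32, 6.91 and 7.21 CPM) overlapped.

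The count of members below 0 at an unadjusted p under 0.05 moved from 15 with single libraries of both groups and with the library set. It was 9, 2 and 20 without NNK_LPS 1, 2 and 3, and 7, 6 and 7 without NNK_LPS_I3C 1, 2 and 3. It was 4 with a term for the set, whose offset between sets B and C rests on NNK_LPS_I3C 1 against NNK_LPS_I3C 2 and 3. The like shares over all genes were not counted in these refits. At an adjusted p under 0.05 the count over all genes moved too, from 318 to 21 without NNK_LPS 2 and 794 without NNK_LPS 1. Within set B only NNK_LPS_I3C 1 joins NNK_LPS. All 15 mitosis genes stayed below 0 in each of these fits, with the median at -0.39 without NNK_LPS 2, -0.77 without NNK_LPS 3, -0.49 with the set term and -0.51 within set B. Without NNK_LPS 3, Plk1 was called (-0.88 ± 0.22, adjusted p = 0.0412, edgeR). Heart muscle markers rose with I3C in 5 of 5 cases, from sums of 76.1 to 142 CPM up to 335 to 477 CPM, and 5 of 8 alveolar type 2 markers fell, from 49199 to 68249 CPM down to 36929 to 38228 CPM. Their part in the members' levels was not tested.

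With Sil the members had a median of -0.08 and the mitosis genes one of -0.11, and both moved with single libraries. Without NNK_LPS_Sil 3 the medians were -0.22 and -0.35, with 15 of 15 mitosis genes below 0. The median over the members was -0.18 without NNK_LPS 3, 0.02 without NNK_LPS_Sil 2 and 0.06 without NNK_LPS 2. Mki67 stood at 37.7, 36.3 and 41.1 CPM (-0.23 ± 0.20), Top2a at 21.7, 20.5 and 28.2 CPM (-0.13 ± 0.24) and Cdk1 at 4.80, 4.60 and 8.99 CPM (-0.18 ± 0.29). NNK_LPS_Sil 3 was the highest of its group in each. The same library held Ccnd1 at 402 CPM beside 224 and 218 CPM, Bub1 at 7.44 beside 3.26 and 3.40 CPM, Prc1 at 14.6 beside 7.94 and 7.64 CPM and E2f1 at 22.9 beside 15.1 and 16.2 CPM. Mcm3 (20.4, 19.6 and 22.4 CPM), Mcm5 (17.0, 18.0 and 19.1 CPM), Mcm6 (33.2, 31.8 and 31.6 CPM), Pcna (86.6, 88.2 and 84.6 CPM) and Ccne1 (1.60, 2.27 and 2.08 CPM) had narrower ranges. Tyms (9.41, 8.42 and 8.99 CPM), Bub1b (8.86, 7.58 and 9.28 CPM), Cenpf (6.15, 4.18 and 8.33 CPM) and Nusap1 (6.58, 4.78 and 6.13 CPM) overlapped NNK_LPS.

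With both agents all 15 mitosis genes again had estimates below 0, with a median of -0.21, and none was without overlap. Without NNK_LPS 2 the median was -0.07 with 12 of 15 below 0, and without NNK_LPS 3 it was -0.39. Mki67 stood at 42.1, 36.4 and 36.4 CPM (-0.23 ± 0.20), Top2a at 25.7, 22.8 and 24.6 CPM (-0.07 ± 0.23) and Cdk1 at 5.65, 5.20 and 5.41 CPM (-0.36 ± 0.29). All 3 overlapped NNK_LPS. Ccnd1 (287, 257 and 273 CPM), Ccne1 (1.99, 1.96 and 1.77 CPM), E2f1 (19.8, 17.5 and 21.9 CPM) and Pcna (76.6, 84.1 and 83.3 CPM) did too. The MCM genes Mcm3 (20.0, 21.6 and 19.6 CPM), Mcm5 (15.8, 17.7 and 14.1 CPM) and Mcm6 (34.0, 29.9 and 26.1 CPM) and the later genes Bub1 (4.20, 3.51 and 4.37 CPM), Nusap1 (6.76, 5.20 and 5.49 CPM) and Cenpf (6.03, 5.15 and 6.23 CPM) also overlapped. Tyms (8.36, 10.8 and 8.39 CPM), Bub1b (8.55, 8.48 and 6.84 CPM) and Prc1 (9.28, 6.98 and 10.1 CPM) were not called. Of all 87 other pathway genes with any agent, 1 was called, Ccng1, a p53 target, which fell with I3C by 0.49 ± 0.10 (adjusted p = 0.0275, edgeR).

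**Figure D5:**
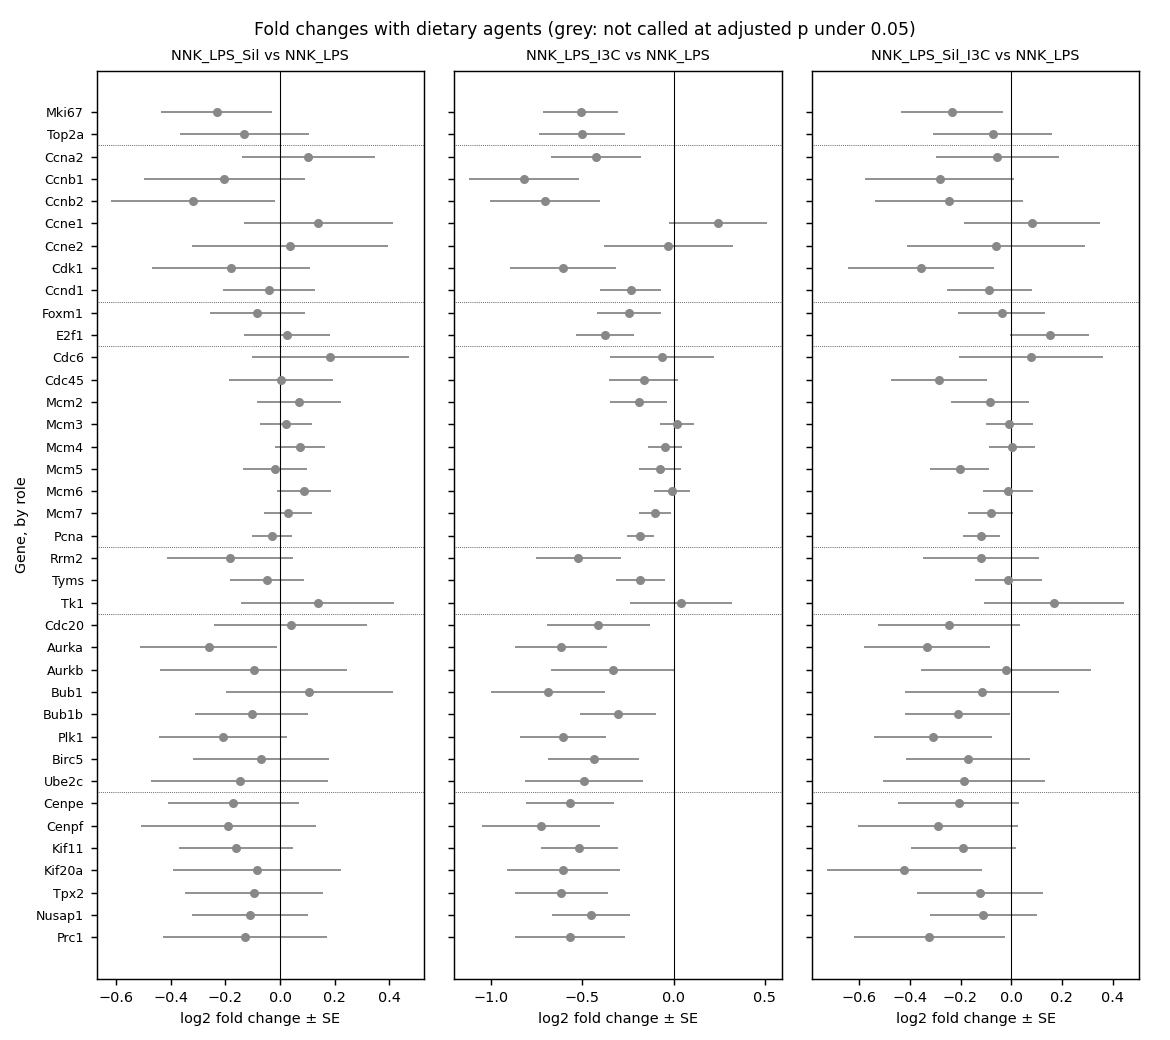
Log2 fold change ± SE of the 38 genes, by role, with Sil, I3C or both against NNK_LPS; the horizontal scales differ, and grey marks genes not called, here all 38. The I3C points of the mitosis genes lie left of 0 and those of the MCM genes near 0.

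As a description over the 21 libraries, which share depth and library set, each member was correlated with the mean z-score of the other 37. The correlation was 0.93 for Top2a, 0.93 for Ccnb1 and 0.92 for Cenpe, the centromere motor. It was lowest for Ccnd1 (0.06), followed by Tk1, the thymidine kinase gene (0.21), Ccne1 (0.26), Ccne2 (0.30) and Plk1 (0.38). The 10 other genes tested with the highest correlation to the members' mean were Ckap2l (0.97), Nuf2 (0.93), Cep55 (0.91), Esco2 (0.90), Ncapg, Fignl1, Shcbp1, Kif22, Dlgap5 and Stil (0.87), of which Ckap2l, Nuf2, Ncapg and Dlgap5 are on the list of other mitosis genes.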

How the data were processed

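RNA was sequenced on an Illumina HiSeq from TruSeq RNA v2 libraries, per the labels' protocols, and the submitters' processing notes name the mouse build mm10. The authors deposited 1 table of raw read counts per gene symbol for 21 libraries. The aligner, counter, annotation and strand setting were not given in the sources used here. Of the 38924 symbols, 16756 had 0 counts in every library.

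Genes were filtered with edgeR's filterByExpr at a minimum count of 10, scaled by TMM and fitted over all 7 groups with the robust quasi-likelihood test of edgeR 4.0.16 in R 4.3.3, with 14 residual degrees of freedom. Each p-value was adjusted by Benjamini-Hochberg over the 15770 genes. The SE is the size of the log2 fold change divided by the root of the F statistic. Log2 CPM used a prior count of 2. In counts simulated for LPS against Control over 15628 genes, the test recovered 6% of genes changed 1.3-fold, 36% at 1.5-fold, 66% at 2-fold and 72% at 4-fold. The rates in the measured counts of that comparison, where 50% of all genes were called, were not tested.

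Library values were printed for Mki67, Top2a, Ccnd1, Cdk1, the most abundant member of each role, and up to 4 called members with the smallest adjusted p per direction and comparison. From the lists of other pathway genes, up to 3 per direction were named by the same rule. Ccne2, Ccnb1, Rrm2, Plk1, Mcm2, Mcm4, Mcm7, Cdc45 and Cdc6 were named after their values were seen. The members, the lists and the tests were chosen with earlier results of these data known. Promoter sequences are RefSeq windows on GRCm38.p6, and gene positions are from GENCODE on the same build. Replicates were numbered 1 to 3 by the order of the titles within each group. In the tumour groups these differ from the numbers that end the titles, and the labels name no pairing. The mark for pairing was all 3 same-numbered correlations of deviations over 0.1. It was met for NNK_LPS with NNK_LPS_I3C (0.158, 0.276 and 0.262) and, not compared here, NNK with NNK_LPS_I3C. Alternatives were relative log expression size factors, no filter, DESeq2 1.42.0, the compared groups alone, a replicate block, a term for the library set, leaving out each library, and, added after seeing the data, the libraries of set A or of set B alone.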

Additional observations from a re-analysis of the deposited data

Results flagged for a closer look

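For 3 members the effect of LPS differed between tumours and normal lung by the test of that difference (edgeR's quasi-likelihood test, Benjamini-Hochberg adjustment over all genes). The same test called 25.1% of all genes, 14.4% lower, which is a larger share than among the members. The calls are thus of single genes and do not set the members apart from other genes. The difference, the LPS effect in tumours minus that in lung, was -1.77 ± 0.39 for Ccne1 (adjusted p = 0.00336), -0.48 ± 0.13 for Mcm3 (adjusted p = 0.013) and -0.42 ± 0.14 for Mcm6 (adjusted p = 0.0341). In normal lung, all 3 LPS libraries were above all 3 Control libraries for each gene, while in tumours the NNK_LPS and NNK libraries overlapped. The NNK_LPS and NNK libraries lie in different library sets, and the Mcm6 call was lost under 7 of 18 alternatives.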

How the results depend on the processing

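Of the 25 member calls, refitted 336 times under the alternatives, 252 refits kept direction and call, 84 lost the call and 0 reversed. Ccne1, Mcm3, Mcm5 and Mcm6 in LPS against Control, Mcm3 and Mcm5 in NNK_LPS against LPS, and Ccne1 and Mcm3 in the tissue difference were called under every alternative run. Counts of members called moved by over 1.5 times in these cases, whose cause was not tested. For NNK against Control (3) there were 5 with DESeq2 and 5 within set A. For NNK_LPS against Control (4) there were 2 with relative log expression factors, 2 with no filter, 2 with the replicate block, 0 with the 2 groups alone and 0 with the set term. For NNK_LPS against LPS (9) there were 2 within set B, where fewer libraries were fitted. Over all genes, NNK_LPS against Control (3876) gave 24 with the set term. NNK_LPS against NNK (15, 66.7% of them higher) gave 483 with DESeq2 (54.5% higher), 37 with the replicate block (37.8% higher) and 0 with the set term. NNK_LPS against LPS (6024) gave 3979 with the set term and 1836 within set B. I3C (318) gave 1027 with DESeq2, 5 with the groups alone, 60 with the set term and 0 within set B. Both agents (214) gave 665 with DESeq2, 13 with the groups alone and 2 with the set term.

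Leaving out 1 library gave 0 to 6 members for NNK against Control, 5 to 10 for LPS against Control, 1 to 8 for NNK_LPS against Control, 7 to 8 for NNK_LPS against LPS, 2 to 7 for the tissue difference, 0 to 1 for I3C and 0 for the others. Over all genes it gave 404 to 1840 for NNK against Control (2064), 2227 to 4359 for NNK_LPS against Control, 0 to 223 for NNK_LPS against NNK, 21 to 794 for I3C and 30 to 816 for both agents. Of 63 same-numbered pairs 17 had correlated deviations above 0.1 (range -0.358 to 0.463). Of the comparisons made, I3C alone met the mark for pairing. The labels name no pairing, and whether these samples were paired was not tested. With the replicate block, I3C gave 277 genes and 0 members called, and 12 members below 0 at an unadjusted p under 0.05. The like share over all genes in that fit was not counted, and the block changed no member call there. Genes with low counts, such as Ccne2, limit what these depths can show.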
